A study of Mus musculus with 24 samples.

Results

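EGFP+ interstitial macrophages from injured lungs of Spp1 reporter mice were compared with the whole interstitial gate of injured wild-type mice. The comparison rests on 6 of the 24 libraries of the series, chosen by their labels. In 3 of them the cells were CD11b+ SiglecF- EGFP+ lung macrophages of Spp1-EGFP KI mice, where KI stands for knock-in and EGFP reports the gene Spp1. In the other 3 they were CD11b+ SiglecF- lung macrophages of WT C57BL/6J mice, which carry no reporter and were not sorted by EGFP. Both groups had received bleomycin into the trachea at 3 µg per g body weight, and their lungs were taken at day 7. Bleomycin injures the lung and is a common way to model fibrosis in mice. Beside them stand 3 libraries of the EGFP- cells of the same gate from bleomycin-treated reporter mice, and 3 of the same gate from WT C57BL/6J mice given PBS, all at day 7. The comparison asks what a gate on EGFP adds to the whole CD11b+ SiglecF- gate. Genotype, EGFP gate and the sex-linked transcripts described below change together in it and cannot be told apart. The labels give neither sex nor age, nor the number of animals per library, nor how EGFP was joined to the gene. They do not say that replicates came from separate animals, so p-values measure only the spread between these samples.

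Spp1 encodes osteopontin, a secreted phosphoprotein that binds integrins and CD44 and is abundant in matrix under repair. Interstitial macrophages lie in the walls of the airways and alveoli, and after injury many of them derive from blood monocytes. Macrophages with high Spp1 in injured tissue are known for lipid-handling, lysosomal and matrix-remodelling genes, a profile often called lipid-associated.

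Spp1 (ENSMUSG00000029304, chromosome 5, 104435118 to 104441050, plus strand, GRCm38) had a level of 4183, 4895 and 3628 CPM in the 3 EGFP+ libraries, where CPM is the count scaled to the library's total and its TMM factor, a correction for libraries of different composition. Its level was 3572, 3288 and 3002 CPM in the 3 wild-type libraries. The EGFP+ libraries were all above the wild-type libraries, but the lowest of them was close to the highest wild-type library. The log2 fold change, EGFP+ minus wild-type, was 0.37 ± 0.10 (SE, n = 3 libraries per group), with an adjusted p of 0.0166 by edgeR's quasi-likelihood test. With scaling by library totals alone it was 0.26 with an adjusted p of 0.0800. Without EGFP+ replicate 1 it was 0.38 with an adjusted p of 0.188, and without wild-type replicate 3 it was 0.31 with an adjusted p of 0.0767. The EGFP- libraries held 461, 581 and 585 CPM of Spp1 and the wild-type PBS libraries 85.7 to 90.6 CPM. The whole wild-type gate thus had a Spp1 level much nearer to the EGFP+ than to the EGFP- gate.

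The genes of the sort and of sex stood as follows in the same libraries. Itgam, which encodes CD11b, had 391 ± 28 CPM (SD, n = 3) in EGFP+ and 249 ± 8.29 CPM in wild-type libraries, a log2 difference of 0.66 ± 0.06 (SE, adjusted p = 1.4e-07, edgeR). Siglecf, the marker selected against, had 15.9 ± 1.25 and 12 ± 0.43 CPM, a log2 difference of 0.42 ± 0.11 (SE, adjusted p = 0.00429, edgeR). The EGFP- libraries had 373 ± 17.2 CPM of Itgam and 26.2 ± 0.84 CPM of Siglecf. Xist, the noncoding RNA made from an inactive X chromosome, had 661 to 754 CPM in the EGFP+ and 767 to 943 CPM in the EGFP- libraries, but at most 0.0588 CPM in the wild-type bleomycin and 0.356 CPM in the wild-type PBS libraries. The Y-linked helicase gene Ddx3y had 144 to 149 CPM in the wild-type bleomycin and 251 to 269 CPM in the wild-type PBS libraries, and 0.126 to 0.292 CPM in the EGFP- libraries. In the EGFP+ libraries Ddx3y had 0.909, 10.3 and 0.633 CPM, and replicate 2 also held the most of the Y-linked genes Eif2s3y (3.34 CPM), Kdm5d (1.16 CPM) and Uty (0.886 CPM). The reporter libraries thus carried Xist and the wild-type libraries the Y-linked transcripts. Sex is not in the labels, but these transcripts mark it, so genotype, sex and EGFP gate cannot be told apart in the comparison. With autosomal genes alone, 2793 genes were higher and 2398 lower in EGFP+ libraries, against 2895 and 2467 over all chromosomes. Autosomal genes that differ by sex stay in this count, so the part of sex in it was not tested. Without EGFP+ replicate 2, the library with some Y-linked transcripts, 2767 were higher and 2260 lower.

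**Figure D1:**
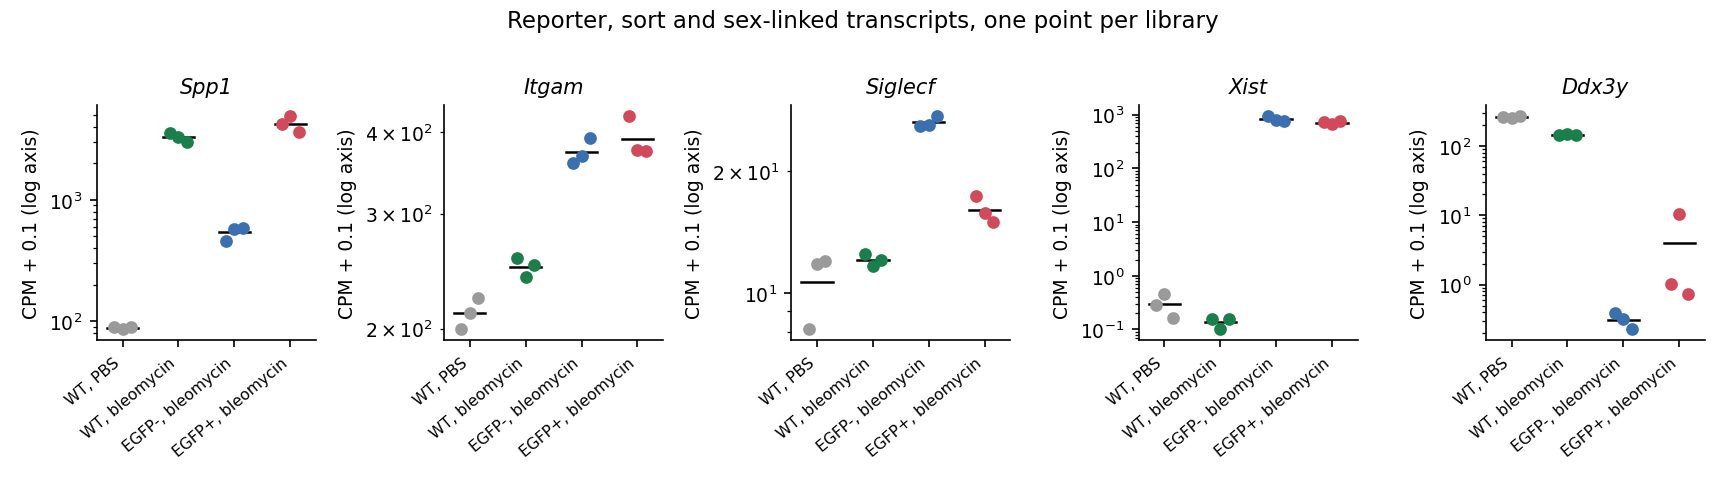
Levels of the reporter gene Spp1, the sort genes Itgam and Siglecf, and the sex-linked genes Xist and Ddx3y, in CPM + 0.1 on a log axis, with 1 point per library and a bar at the mean of the 3 libraries of each group. Xist is at 661 CPM or more in every reporter library and Ddx3y at 144 CPM or more in every wild-type library, while the Spp1 points of EGFP+ and wild-type bleomycin libraries are close to each other.

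The 6 libraries held 15158909 to 17848593 counts each. In EGFP+ relative to wild-type libraries, 2895 (19.7%) of the 14700 genes tested had a higher level and 2467 (16.8%) a lower one, or 36.5% either way. A difference of 2-fold or more was called for 481 genes higher (3.27%) and 339 lower (2.31%). The 3 and 3 libraries did not overlap for 48.2% of all genes. With such a background, a single called gene is common, and the counts of gene groups below are to be read against these shares. The median log2 fold change over all genes was -0.01. With scaling by library totals alone it moved to -0.13, and 1869 genes were higher and 4154 lower. The share of calls that were higher was 54.0% with the factors used here, 45.2% with upper-quartile factors and 31.0% with library totals. In bulk RNA, fewer cells of a type and less RNA per cell cannot be told apart.

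**Figure D2:**
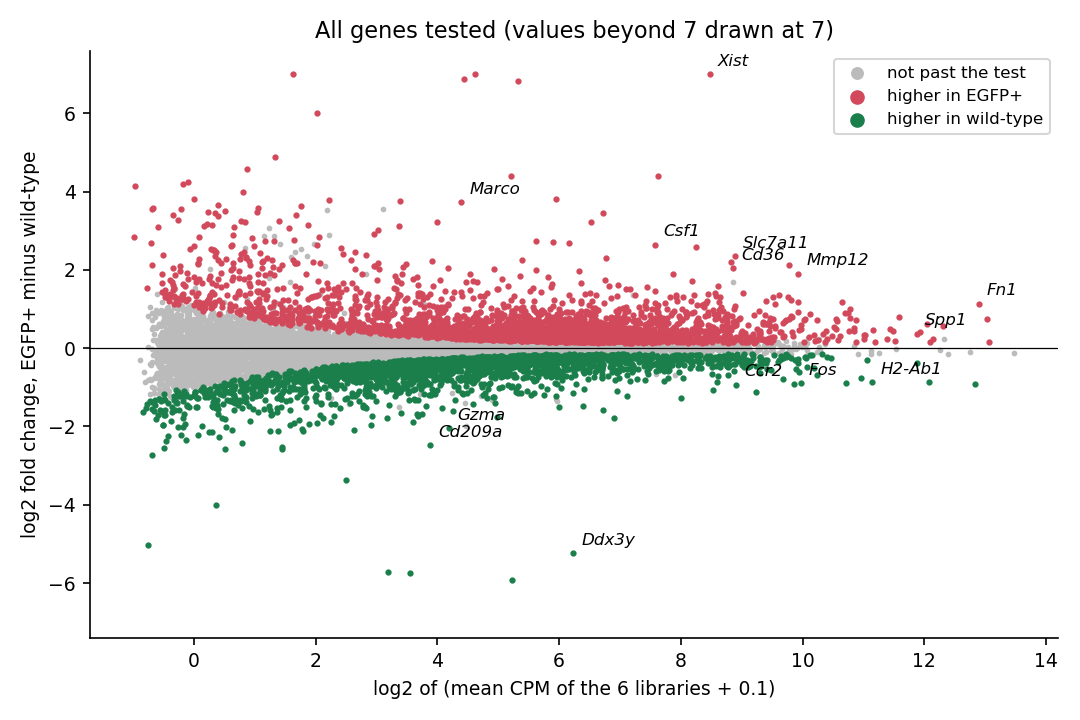
Log2 fold change, EGFP+ minus wild-type, against the log2 of the mean CPM + 0.1 of the 6 libraries, with 1 point per gene tested. Red points are the 2895 genes called higher and green points the 2467 called lower in EGFP+ libraries, and named points include Xist and Ddx3y at the extremes and Spp1 at 0.37.

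Genes of lipid-associated macrophages made up one of the groups with the most members higher in EGFP+ libraries. Of 21 members tested, 16 were higher and 1 lower, with a median log2 fold change of 0.60. Mmp12, the macrophage elastase, had 1404, 1662 and 1516 CPM in EGFP+ and 425, 417 and 390 CPM in wild-type libraries. The groups were far apart, with a log2 difference of 1.90 ± 0.07 (SE, adjusted p = 1.8e-13, edgeR), and the EGFP- libraries had 268 to 269 CPM. Lpl, lipoprotein lipase, had 2090, 2293 and 2257 CPM against 967, 962 and 1014 CPM, with 631 to 638 CPM in EGFP- libraries. Its log2 difference between EGFP+ and wild-type was 1.18 ± 0.06 (SE, adjusted p = 2.9e-11). Plin2, which coats lipid droplets, had 1429 ± 102 CPM (SD) against 792 ± 46.2 CPM, and Lipa, the lysosomal acid lipase, 582 ± 29.4 against 334 ± 12.4 CPM. The member that was lower was Apoe, the lipid carrier apolipoprotein E, with 5030 ± 748 CPM against 9540 ± 709 CPM. Trem2, a lipid-sensing receptor, had 242 ± 22.2 and 265 ± 21.2 CPM (adjusted p = 0.183) and Gpnmb, a lysosomal glycoprotein, 1172 ± 182 and 993 ± 52.1 CPM (adjusted p = 0.0646), so neither passed. For 15 of the 21 members, EGFP+ libraries were called higher than wild-type and lay above all 6 other bleomycin libraries, against 7.52% of all genes. Without EGFP+ replicate 2, 13 members were higher and 3 lower.

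Receptors and carriers for lipid were also mostly higher. Of 19 tested genes of lipid uptake, storage and efflux, 14 were higher and 1 lower, with a median of 0.54. Without EGFP+ replicate 3 the number lower was 2, and without wild-type replicate 3 it was 0. Cd36, the fatty acid and oxidised lipoprotein receptor, had 714, 763 and 763 CPM in EGFP+ and 185, 179 and 185 CPM in wild-type libraries. Its log2 difference was 2.04 ± 0.06 (SE, adjusted p = 1.1e-14, edgeR). The EGFP- libraries had 228 to 247 CPM of Cd36 and the wild-type PBS libraries 495 ± 14.8 CPM, so that the injured wild-type gate was the lowest of the 4 groups. Marco, a scavenger receptor, had 39.3, 32.1 and 44.5 CPM against 2.50, 2.63 and 3.64 CPM. This is a log2 difference of 3.73 ± 0.15 (SE, adjusted p = 6e-11), with 2.34 to 2.65 CPM in EGFP- and 3.45 to 5.41 CPM in wild-type PBS libraries. Olr1, a receptor for oxidised lipoproteins, differed otherwise: it had 343 ± 13 CPM in EGFP+ and 337 ± 4.37 CPM in EGFP- libraries, against 139 ± 5.13 CPM in wild-type libraries.

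**Figure D3:**
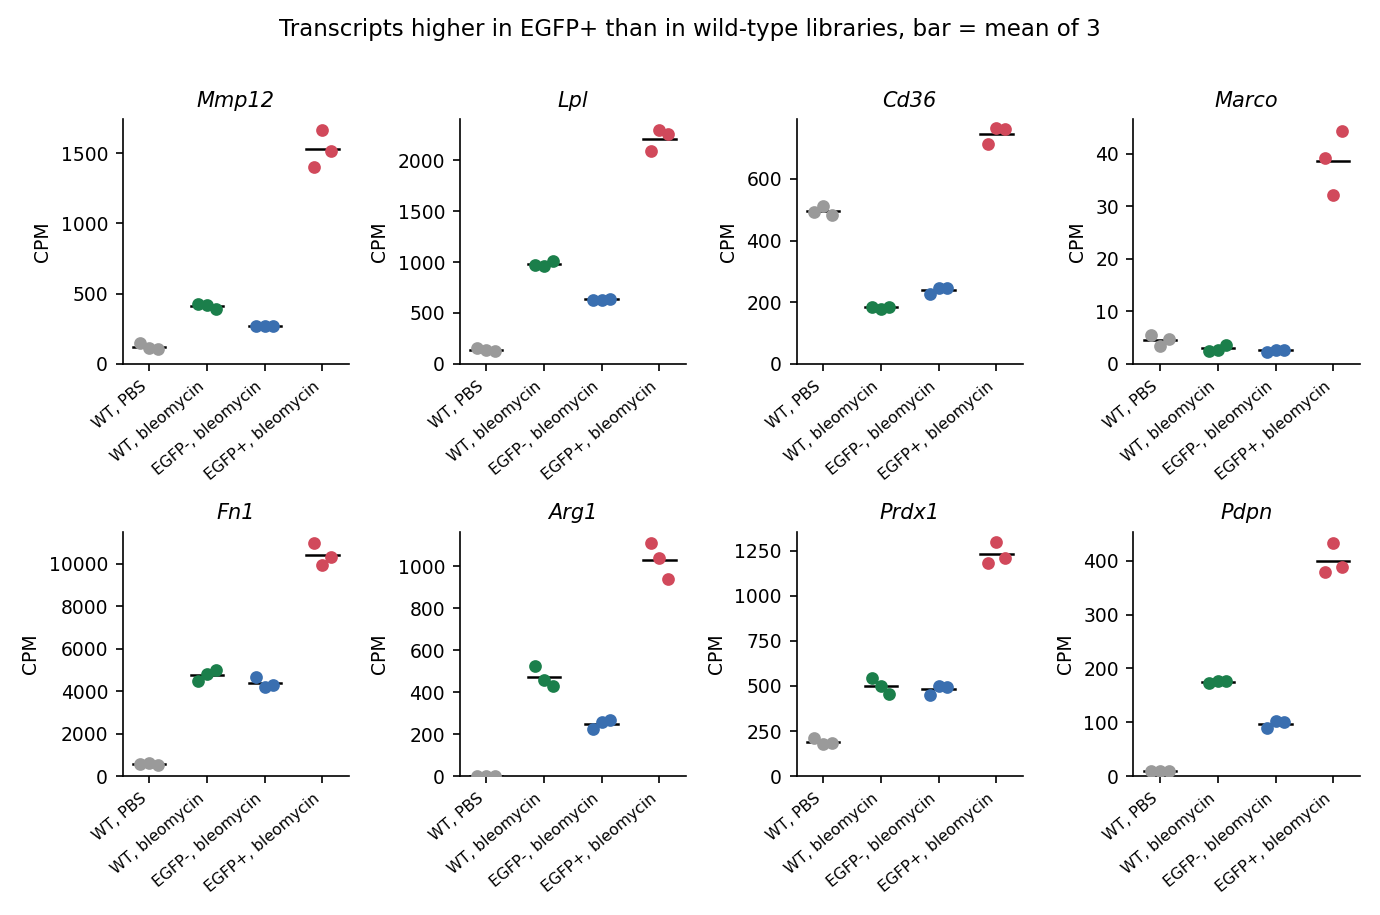
CPM of Mmp12, Lpl, Cd36, Marco, Fn1, Arg1, Prdx1 and Pdpn, with 1 point per library and a bar at the mean of 3. In each panel the 3 EGFP+ points lie above all other points, and the EGFP- and wild-type bleomycin points lie lower and nearer to each other.

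Marco is also a marker of alveolar macrophages, the SiglecF+ cells of the airspace. Of 16 tested genes of that identity, 8 were higher and 1 lower, with a median log2 fold change of 0.79. The number lower was 2 without EGFP+ replicate 1 and 3 without EGFP+ replicate 3. Ear1, a ribonuclease of alveolar macrophages, had 2.73, 3.95 and 2.53 CPM against 0.117 to 0.524 CPM. Krt79, a keratin that marks the same cells, had 1.56, 2.79 and 3.55 CPM against 0.107 to 0.466 CPM, and both were at 0.252 CPM or less in EGFP- libraries. These levels are low: they rest on 140 and 121 counts over the 3 EGFP+ libraries, and with a filter of 5 CPM in 3 libraries 4 members of the list were higher in place of 8. Car4, a carbonic anhydrase, had 13.4, 13.2 and 28.2 CPM against 1.61 to 2.64 CPM. Fabp4, a fatty acid binding protein, had 20.6 ± 1.66 CPM against 9.78 ± 0.41 CPM. The wild-type PBS libraries held more of Fabp4 and Krt79 than the EGFP+ libraries, at 30.9 ± 2.25 CPM and 3.97 to 5.09 CPM. The PBS levels of Car4 (6.62 to 6.77 CPM) and Ear1 (0.704 to 2.14 CPM) lay between the EGFP+ and injured wild-type levels. For Ear1, Krt79, Car4 and Fabp4 the injured wild-type libraries were thus below the PBS libraries as well as the EGFP+ libraries.

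Genes of resident interstitial macrophages and of monocytes were mostly lower or did not pass. Of 16 tested resident genes, 2 were higher (1 without EGFP+ replicate 3 or wild-type replicate 1) and 8 lower, with a median of -0.21. Cx3cr1, the fractalkine receptor, had 43.4, 62.3 and 52.7 CPM in EGFP+ and 154, 159 and 162 CPM in wild-type libraries, a log2 difference of -1.58 ± 0.10 (SE, adjusted p = 2.8e-07, edgeR). C1qa, C1qb and C1qc, the chains of complement C1q, had log2 differences of -0.60, -0.50 and -0.56, and C1qa had 783 ± 104 CPM against 1192 ± 118 CPM. Of 11 tested classical monocyte genes 2 were higher and 4 lower, and of 13 nonclassical ones 2 were higher and 7 lower, with medians of -0.12 and -0.44. Ccr2, the receptor that draws monocytes to tissue, had 311, 340 and 331 CPM against 626, 627 and 628 CPM. The log2 difference was -0.93 ± 0.05 (SE, adjusted p = 3.6e-10), and the EGFP- libraries, at 362 to 401 CPM, were also below the wild-type libraries. Ly6c2, the monocyte surface antigen, had 123 ± 12.7 against 217 ± 12.9 CPM, whereas Hp, haptoglobin, was higher at 343 ± 38.5 against 199 ± 2.78 CPM.

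**Figure D4:**
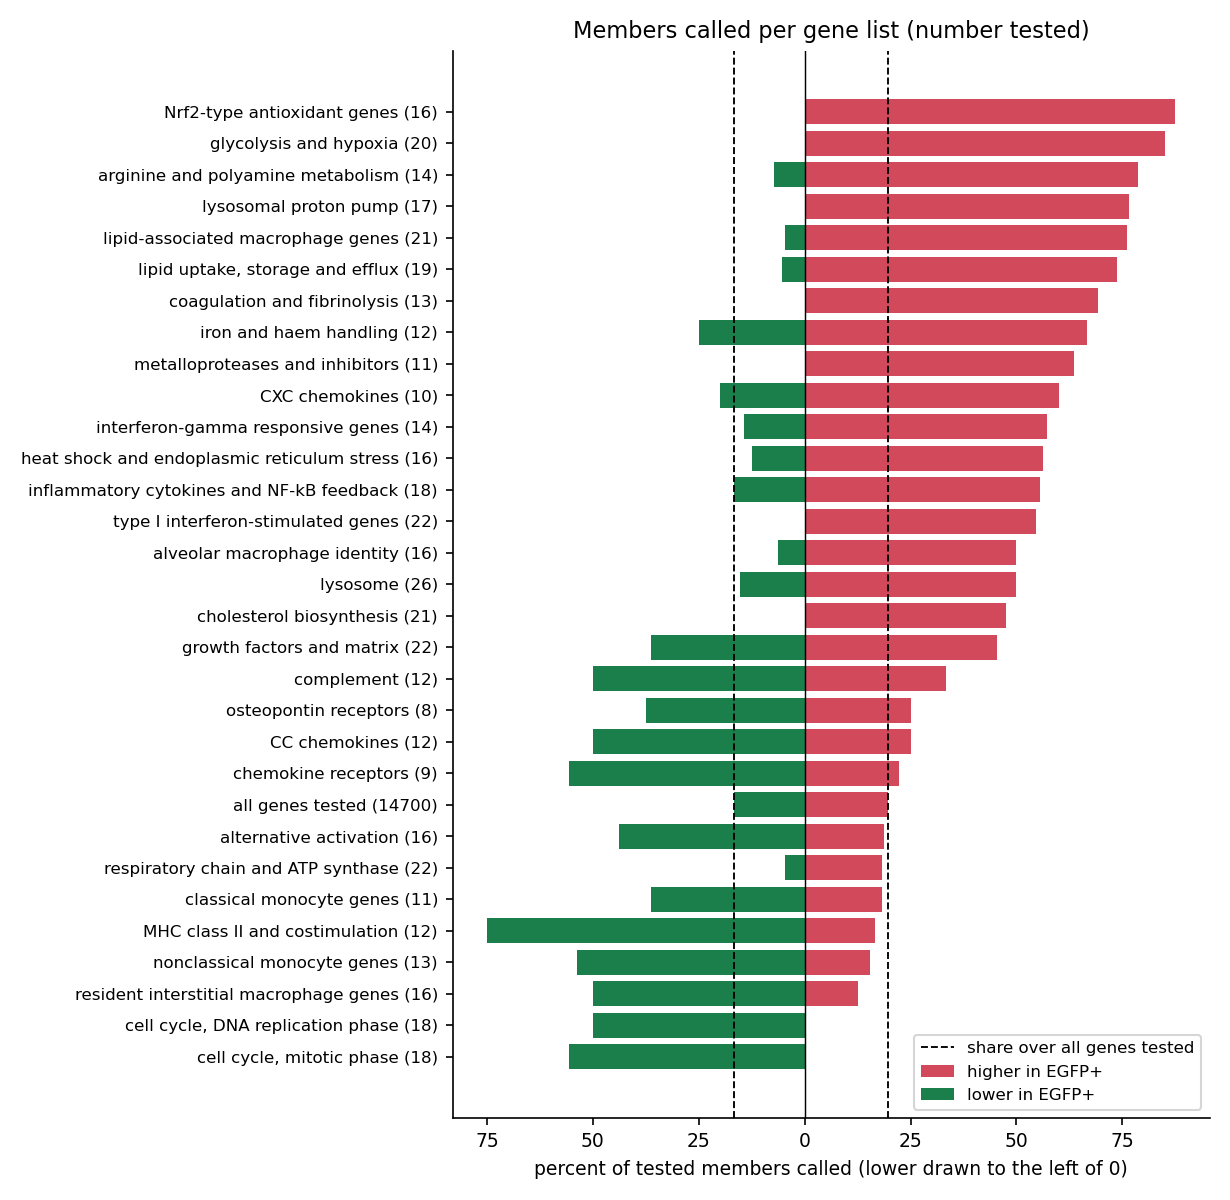
Percent of the tested members of each gene list that were called higher (red, to the right) or lower (green, to the left) in EGFP+ than in wild-type libraries, with the number tested in brackets. Dashed lines mark the shares over all 14700 genes, 19.7% higher and 16.8% lower. Antioxidant, glycolysis, arginine, proton pump and lipid lists reach furthest to the right, and the MHC class II list furthest to the left.

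Lysosomal genes were higher for the proton pump and mixed for the enzymes. Of 17 subunits of the proton pump that acidifies lysosomes, 13 were higher and 0 lower, with a median of 0.27. The differences were small and even: Atp6v1a had 362, 362 and 360 CPM against 263, 258 and 261 CPM, a log2 difference of 0.48 ± 0.05 (SE, adjusted p = 9.1e-07, edgeR), and Atp6v1e1 had 254 ± 7.10 against 173 ± 5.41 CPM. For 11 of the 17 the EGFP+ libraries also lay above all 6 other bleomycin libraries, against 7.52% of all genes. Of 26 other lysosomal genes 13 were higher and 4 lower (2 without wild-type replicate 1 or 2), with a median of 0.13. The protease gene Ctsl had 985, 1063 and 956 CPM against 703, 641 and 590 CPM, and 275 to 321 CPM in EGFP- libraries. With scaling by library totals, 6 of the 26 were higher and 9 lower, so that the balance of this list turned.

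Matrix and growth factor genes changed in both directions. Of 22 tested, 10 were higher and 8 lower, with a median of 0.11. Fn1, which encodes fibronectin, had 10986, 9965 and 10308 CPM in EGFP+ and 4502, 4826 and 5012 CPM in wild-type libraries, a log2 difference of 1.13 ± 0.06 (SE, adjusted p = 1.4e-10, edgeR). The EGFP- libraries were near the wild-type level, with 4215 to 4689 CPM. Ereg, the growth factor epiregulin, had 16.5, 18.7 and 22.5 CPM against 1.34 to 1.47 CPM, a log2 difference of 3.76 ± 0.17 (SE, adjusted p = 8.5e-12). Pdpn, the membrane glycoprotein podoplanin, had 400 ± 28.9 CPM against 175 ± 1.61 CPM. The collagen gene Col1a1, a fibroblast product, was lower at 3.02 ± 0.79 against 11.8 ± 1.35 CPM.

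Of 11 metalloproteases and inhibitors, 7 were higher and 0 lower, with a median of 0.49. Besides Mmp12, the metalloprotease gene Mmp19 had 1444, 1406 and 1428 CPM against 320, 334 and 325 CPM, and 880 ± 31.0 CPM in EGFP- libraries. The inhibitor gene Timp1 had 34.1 ± 1.99 against 12.2 ± 0.89 CPM. Of 8 osteopontin receptor genes, 2 were higher and 3 lower. Cd44 had 1498 ± 70.9 against 911 ± 23.3 CPM, and Itga5, an integrin chain, 389 ± 33.7 against 207 ± 4.97 CPM. Both were higher still in EGFP- libraries, at 1954 ± 33.9 CPM for Cd44 and 545 ± 14.9 CPM for Itga5. In wild-type PBS libraries Cd44 had 2011 ± 74.6 CPM and Itga5 168 ± 9.78 CPM. The integrin chain gene Itgb5 was lower at 273 ± 15.5 against 355 ± 11.8 CPM, and had 159 ± 14.0 CPM in EGFP- libraries.

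Arginine and polyamine metabolism was higher for 11 of 14 genes and lower for 1, with a median of 0.34. Arg1, arginase 1, had 1109, 1039 and 940 CPM in EGFP+ and 526, 460 and 430 CPM in wild-type libraries. The log2 difference was 1.13 ± 0.08 (SE, adjusted p = 2e-08, edgeR), with 226 to 268 CPM in EGFP- libraries. Slc7a2, a transporter of arginine, had 280 ± 22.2 against 102 ± 10.9 CPM. Nos2, the inducible nitric oxide synthase, which uses the same amino acid, had 18.0 ± 2.40 against 4.09 ± 0.09 CPM and was highest in EGFP- libraries, at 35.5 ± 3.19 CPM. Of 16 genes of alternative activation, 3 were higher, Arg1 among them, and 7 lower. Mgl2, a lectin receptor, had 38.4, 49.7 and 72.7 CPM against 190, 191 and 177 CPM, a log2 difference of -1.78 ± 0.25 (SE, adjusted p = 0.00681), and Retnla, a secreted marker of alternative activation, 5.93 ± 1.13 against 19.3 ± 3.80 CPM.

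Antioxidant genes of the type driven by the transcription factor Nrf2 had the highest share of members higher in EGFP+ libraries among the pathway lists. Of 16 tested, 14 were higher and 0 lower with the factors used here, and 1 was lower with library totals. The median was 0.98. Slc7a11, the cystine transporter, had 883, 709 and 781 CPM against 146, 157 and 166 CPM, a log2 difference of 2.35 ± 0.08 (SE, adjusted p = 5e-12, edgeR). Prdx1, a peroxiredoxin that removes peroxide, had 1181, 1300 and 1208 CPM against 546, 498 and 457 CPM. Its log2 difference was 1.31 ± 0.07 (SE, adjusted p = 6e-11). The 2 genes differed in the EGFP- libraries. Slc7a11 was highest there, at 1117 to 1186 CPM, and Prdx1 was near the wild-type level, at 452 to 500 CPM. Hmox1, haem oxygenase 1, had 751 ± 76.7 against 287 ± 12.9 CPM. Gclm, a subunit of the enzyme that starts glutathione synthesis, had 90.9 ± 3.46 against 41.3 ± 3.49 CPM, and Txnrd1, thioredoxin reductase 1, 645 ± 51.1 against 308 ± 15.2 CPM.

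The core of the antioxidant response element, TGACNNNGC on either strand, was searched in the RefSeq promoter windows (250 bases before to 50 after a start, GRCm38.p6). It was in 12.4% of 32851 windows, and in 8 of 16 windows (50%) of the 12 list genes that matched the table. The 250 bases upstream of 3 called members with a match are shown 5′ to 3′ along the gene, with the match in capitals, to let the letters be read beside the levels. They lie at chr4:116685349-116685598 (Prdx1), chr3:122245307-122245556 (Gclm) and chr10:82858956-82859205 (Txnrd1), all on the plus strand. In these 3 the capitals are the element on the opposite strand. Slc7a11 and Hmox1 were not among the list genes with a match. A match describes letters only.
Prdx1: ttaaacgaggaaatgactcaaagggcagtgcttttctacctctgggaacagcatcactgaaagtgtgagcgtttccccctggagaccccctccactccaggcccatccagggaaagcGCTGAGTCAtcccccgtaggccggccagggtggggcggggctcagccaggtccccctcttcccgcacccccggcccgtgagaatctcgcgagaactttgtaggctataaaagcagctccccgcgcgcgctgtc
Gclm: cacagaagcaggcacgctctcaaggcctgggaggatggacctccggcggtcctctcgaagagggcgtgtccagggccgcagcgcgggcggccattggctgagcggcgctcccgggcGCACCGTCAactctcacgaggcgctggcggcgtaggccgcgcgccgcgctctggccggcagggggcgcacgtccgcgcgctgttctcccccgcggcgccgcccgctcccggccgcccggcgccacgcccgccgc
Txnrd1: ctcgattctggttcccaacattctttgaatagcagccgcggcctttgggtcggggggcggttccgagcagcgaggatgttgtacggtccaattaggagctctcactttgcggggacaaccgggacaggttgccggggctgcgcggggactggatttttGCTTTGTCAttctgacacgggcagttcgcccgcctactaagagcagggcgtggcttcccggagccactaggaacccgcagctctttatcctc

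Glycolysis and hypoxia genes were higher for 17 of 20 members and lower for 0, with a median of 0.70. Slc2a1, the glucose transporter GLUT1, had 315, 288 and 272 CPM in EGFP+ and 146, 147 and 147 CPM in wild-type libraries, a log2 difference of 1.0 ± 0.06 (SE, adjusted p = 5.4e-10, edgeR). Pkm, pyruvate kinase, had 2155 ± 99.3 against 1153 ± 16.6 CPM, and Pgk1, phosphoglycerate kinase, 377 ± 11.4 against 204 ± 6.02 CPM. Of 22 genes of the respiratory chain and ATP synthase, 4 were higher and 1 lower, with a median of -0.01. Without wild-type replicate 2 or 3 the number higher was 2, and without EGFP+ replicate 1 or wild-type replicate 3 the number lower was 2. With library totals 0 were higher and 6 lower.

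Many interferon and inflammatory genes were higher in EGFP+ than in wild-type libraries. Of 22 type I interferon-stimulated genes, 12 were higher and 0 lower, with a median of 0.37. Without EGFP+ replicate 2, 10 were higher and 1 lower. Ifit1, which binds foreign RNA, had 46.6, 37.6 and 37.6 CPM in EGFP+, 14.9, 16.5 and 14.4 CPM in wild-type and 96.6, 98.4 and 102 CPM in EGFP- libraries. The log2 difference between EGFP+ and wild-type was 1.42 ± 0.10 (SE, adjusted p = 3.8e-09, edgeR). Rsad2, the antiviral protein viperin, had 206, 169 and 156 CPM against 73.0, 70.2 and 69.2 CPM, and 430 to 456 CPM in EGFP- libraries. In both genes the order was wild-type, EGFP+, EGFP-, with no overlap between the groups. Of 14 interferon-gamma responsive genes 8 were higher and 2 lower. The 2 lower genes were Ciita and the chemokine gene Cxcl9, at 10.1 ± 1.41 against 21.4 ± 2.72 CPM.

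The core of the interferon-stimulated response element, GAAANNGAAA on either strand, was in 3.44% of all windows. It was in 9 of 17 windows (52.9%) of the 16 matched type I genes and in 8 of 13 windows (61.5%) of the interferon-gamma list. The 250 bases upstream of Ifit1 (chr19:34640639-34640888, plus strand) and Rsad2 (chr12:26456453-26456702, minus strand) are shown for the 2 members with the largest differences, with matches in capitals, read 5′ to 3′ along the gene. In these 2 the capitals are the element on the opposite strand.
Ifit1: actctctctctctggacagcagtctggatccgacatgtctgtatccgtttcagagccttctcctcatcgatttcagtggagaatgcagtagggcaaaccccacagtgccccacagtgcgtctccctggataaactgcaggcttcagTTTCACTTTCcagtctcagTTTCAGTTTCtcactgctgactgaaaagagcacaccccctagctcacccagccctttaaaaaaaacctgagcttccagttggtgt
Rsad2: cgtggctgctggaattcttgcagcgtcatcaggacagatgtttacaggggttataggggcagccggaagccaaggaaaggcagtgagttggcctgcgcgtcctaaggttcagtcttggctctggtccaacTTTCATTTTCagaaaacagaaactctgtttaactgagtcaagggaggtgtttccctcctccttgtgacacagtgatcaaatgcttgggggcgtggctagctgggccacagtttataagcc

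Of 18 inflammatory cytokine and NF-kB feedback genes, 10 were higher and 3 lower, with a median of 0.32. Il1a, interleukin 1 alpha, had 602, 570 and 581 CPM in EGFP+ and 204, 191 and 187 CPM in wild-type libraries, a log2 difference of 1.6 ± 0.06 (SE, adjusted p = 4.1e-13, edgeR). The EGFP- libraries had 556 to 671 CPM of Il1a. Tnf, tumour necrosis factor, had 368, 291 and 307 CPM against 137, 133 and 127 CPM, and 490 to 598 CPM in EGFP- libraries. Osm, oncostatin M, was lower at 370 ± 17.2 against 563 ± 24.2 CPM. Of 10 CXC chemokine genes 6 were higher and 2 lower, and of 12 CC chemokine genes 3 were higher and 6 lower. Cxcl3, a neutrophil attractant, had 228, 182 and 172 CPM against 18.2, 17.1 and 17.8 CPM, a log2 difference of 3.46 ± 0.11 (SE, adjusted p = 1.1e-09). Its level in EGFP- libraries was 211 to 266 CPM. Ccl17, made by dendritic cells and alternatively activated macrophages, had 88.0 ± 3.46 against 155 ± 12.4 CPM, while Ccl9 was higher at 1273 ± 98.0 against 673 ± 32.6 CPM.

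Genes of antigen presentation on MHC class II were lower. Of 12 tested, 9 were lower and 2 higher, with a median of -0.80. H2-Ab1, a chain of the class II molecule, had 1554, 1536 and 1665 CPM in EGFP+ and 2941, 2981 and 2857 CPM in wild-type libraries, a log2 difference of -0.87 ± 0.06 (SE, adjusted p = 1.2e-09, edgeR). Ciita, the transactivator of these genes, had 31.6, 31.4 and 37.2 CPM against 89.9, 94.9 and 99.0 CPM, a log2 difference of -1.49 ± 0.07 (SE, adjusted p = 3.1e-11). The EGFP- libraries lay between, at 2256 to 2383 CPM for H2-Ab1 and 57.9 to 66.1 CPM for Ciita. For 8 of the 12, EGFP+ libraries were called lower and lay below all 6 other bleomycin libraries, against 5.84% of all genes. The 2 higher members were the costimulation genes Cd80 and Cd86, and 1 was higher without EGFP+ replicate 1, wild-type replicate 2 or wild-type replicate 3. B cells and dendritic cells express class II genes too. The summed conventional dendritic cell markers were 225 to 281 CPM in EGFP+ and 338 to 386 CPM in wild-type libraries, with 4 of 10 lower and 1 higher (0 without EGFP+ replicate 2 or 3 or wild-type replicate 2 or 3), and their part in the result was not tested. Among them Cd209a had 2.99, 3.14 and 6.97 CPM against 23.9, 24.3 and 26.3 CPM. B cell surface genes were lower as well. Cr2, a complement receptor of B cells, had 1.88, 3.54 and 4.94 CPM in EGFP+ and 9.08, 12.2 and 13.3 CPM in wild-type libraries, a log2 difference of -1.72 ± 0.27 (SE, adjusted p = 0.000691, edgeR). Cd79b, a part of the B cell receptor, had 5.33, 8.59 and 8.23 CPM against 14.9, 14.3 and 15.6 CPM. Fcer2a and Fcmr, receptors for IgE and IgM, had 5.11 ± 2.72 against 19.0 ± 2.58 CPM and 5.83 ± 2.88 against 19.6 ± 1.69 CPM, with adjusted p of 0.0174 and 0.0118, and were no longer called without EGFP+ replicate 2 (adjusted p 0.0717 and 0.0622) or wild-type replicate 3 (0.0653 and 0.0517), nor Fcer2a without wild-type replicate 2 (0.0599). The part of B cells in the class II result was not tested.

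Cell cycle genes were lower by small amounts. Of 18 genes of DNA replication 9 were lower and 0 higher, with a median of -0.22. Of 18 mitotic genes 10 were lower and 0 higher, with a median of -0.30. Ube2c, a ubiquitin enzyme of mitosis, had 11.6, 12.7 and 11.4 CPM against 18.5, 16.8 and 16.5 CPM, a log2 difference of -0.53 ± 0.10 (SE, adjusted p = 0.000555, edgeR), and 3.00 to 5.92 CPM in EGFP- libraries. Mcm4, a part of the replication helicase, had 46.5 ± 3.42 against 61.0 ± 1.52 CPM. Mki67, the proliferation marker, had 182 ± 14.7 against 165 ± 16.0 CPM and did not pass (adjusted p = 0.112). These counts moved with single libraries. Of the replication genes, 5 were lower without EGFP+ replicate 1 or wild-type replicate 1, and 3 without EGFP+ replicate 3 or wild-type replicate 2. Of the mitotic genes, 5 were lower without EGFP+ replicate 1, when 1 was higher, 4 without wild-type replicate 2 and 6 without wild-type replicate 3. The letters TTTGAA, of the cell cycle homology region, were in 10 of 15 windows (66.7%) of the mitotic and 2 of 16 (12.5%) of the replication genes, against 17.9% of all windows.

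Markers of other cell types that the gate could hold also differed. Of 9 natural killer (NK) cell markers 9 were lower, with a median of -1.58, and their sum was 27.5 to 44.2 CPM in EGFP+ against 106 to 114 CPM in wild-type libraries. Gzma, a granzyme of killer cells, had 5, 8.66 and 7.47 CPM against 29.6, 30.4 and 27.8 CPM, a log2 difference of -2.05 ± 0.14 (SE, adjusted p = 5.9e-09, edgeR). Of 10 T cell markers 7 were lower and 1 higher. The higher one was Il7r, the interleukin 7 receptor, at 229 ± 8.07 against 113 ± 3.84 CPM, and with it the T cell sum was 309 to 345 CPM against 296 to 303 CPM. Of 8 tested fibroblast and smooth muscle markers 6 were lower, with a sum of 19.4 to 33.5 against 49.2 to 54.8 CPM.

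Neutrophil markers changed in both directions. Of 12, 7 were higher and 3 lower, with a sum of 2218 to 3062 CPM in EGFP+, 1619 to 1654 CPM in wild-type and 5043 to 6863 CPM in EGFP- libraries. Lcn2, a granule protein, had 156, 113 and 126 CPM against 62.6, 69.1 and 71.9 CPM, whereas the granule genes Ngp and Camp were lower, at 25.2 ± 2.57 against 52.8 ± 6.39 CPM and 1.99 ± 0.56 against 7.35 ± 0.62 CPM. Neutrophils carry CXC chemokine, interleukin 1 and interferon-stimulated transcripts, and the part of this sum in those results was not tested. Plasma cell transcripts varied between EGFP+ libraries. Jchain, the joining chain of secreted antibodies, had 52.9, 129 and 162 CPM in EGFP+, 7.92 to 8.46 CPM in wild-type and 107 to 120 CPM in EGFP- libraries. Of 10 B and plasma cell markers 3 were higher and 4 lower, with a median of -1.12. The lower ones were the B cell genes Cd79b, Ms4a1, Pax5 and Ighd. The number higher was 1 without EGFP+ replicate 2 or 3 or wild-type replicate 1 or 3, and the number lower was 1 without EGFP+ replicate 2 or any 1 wild-type library. The sum of these markers ran from 536 to 2133 CPM among EGFP+ libraries and from 494 to 563 CPM among wild-type libraries. Epithelial markers had 2 of 12 lower and 0 higher (1 without EGFP+ replicate 1 or 2), with sums of 98.0 to 226 and 139 to 178 CPM. Of these lists no marker was at 0 in a whole group.

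Immediate early genes, which respond to tissue dissociation as well as to stimuli in the animal, were lower for 9 of 14 and higher for 2, with a median of -0.54. The number higher was 1 without EGFP+ replicate 1 or wild-type replicate 1 or 2. Their sum was 8813 to 9371 CPM against 12291 to 12679 CPM. Fos had 713, 700 and 677 CPM in EGFP+ and 1356, 1310 and 1250 CPM in wild-type libraries, a log2 difference of -0.90 ± 0.06 (SE, adjusted p = 8.3e-10, edgeR), and 658 to 701 CPM in EGFP- libraries. Atf3 had 377 ± 32.9 against 827 ± 32.9 CPM. The part of handling in these and in the inflammatory genes was not tested.

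The EGFP- gate of the reporter mice allows a further description. If the wild-type gate held only a mixture of cells like those of both reporter gates, its level of each gene would lie between them. Genes were therefore counted as outside both gates where the mean of the 2 reporter gates differed from wild-type at an adjusted p under 0.05 by edgeR and all 6 reporter libraries lay on the same side of the 3 wild-type libraries. This test shares its EGFP+ and wild-type libraries with the comparison above. The labels do not say whether EGFP+ and EGFP- libraries came from the same mice, and the fit took all 6 as independent. Of 15295 genes tested, 2140 (14%) were outside on the side of higher reporter levels and 2092 (13.7%) on the side of lower ones. At 2-fold or more they were 625 (4.09%) and 278 (1.82%). With library totals the mean of the reporter gates was higher for 2622 and lower for 6052 genes, against 3693 (24.1%) and 4217 (27.6%), or 51.7% either way, with the factors used here, and its median moved from -0.04 to -0.17.

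Csf1, the macrophage growth factor, had 401, 287 and 294 CPM in EGFP+, 623, 728 and 775 CPM in EGFP- and 48.7, 50.7 and 58.9 CPM in wild-type libraries after bleomycin. The mean of the reporter gates exceeded wild-type by 3.19 ± 0.15 on the log2 scale (SE, adjusted p = 6.3e-07, edgeR), and the wild-type PBS libraries had 75.4 ± 5.96 CPM. Inhba, a subunit of activin, had 185, 159 and 156 CPM in EGFP+, 141, 140 and 135 CPM in EGFP- and 16.6, 18.7 and 18.5 CPM in wild-type libraries. The reporter mean was higher by 3.09 ± 0.07 (SE, adjusted p = 3.3e-18). Met, the receptor for hepatocyte growth factor, had 103 ± 3.68, 113 ± 5.24 and 16.0 ± 1.64 CPM in the same order. In the other direction Olfml3, a secreted glycoprotein, had 22.9, 35.7 and 30.6 CPM in EGFP+ and 6.27 to 8.33 CPM in EGFP- libraries, against 69.4, 66.6 and 62.6 CPM in wild-type libraries. Slc7a11, Tnf, Ifit1, Rsad2, Cd36 and Ccr2 were outside both gates too, whereas Mmp12, Lpl, Fn1 and Arg1 were not.

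**Figure D5:**
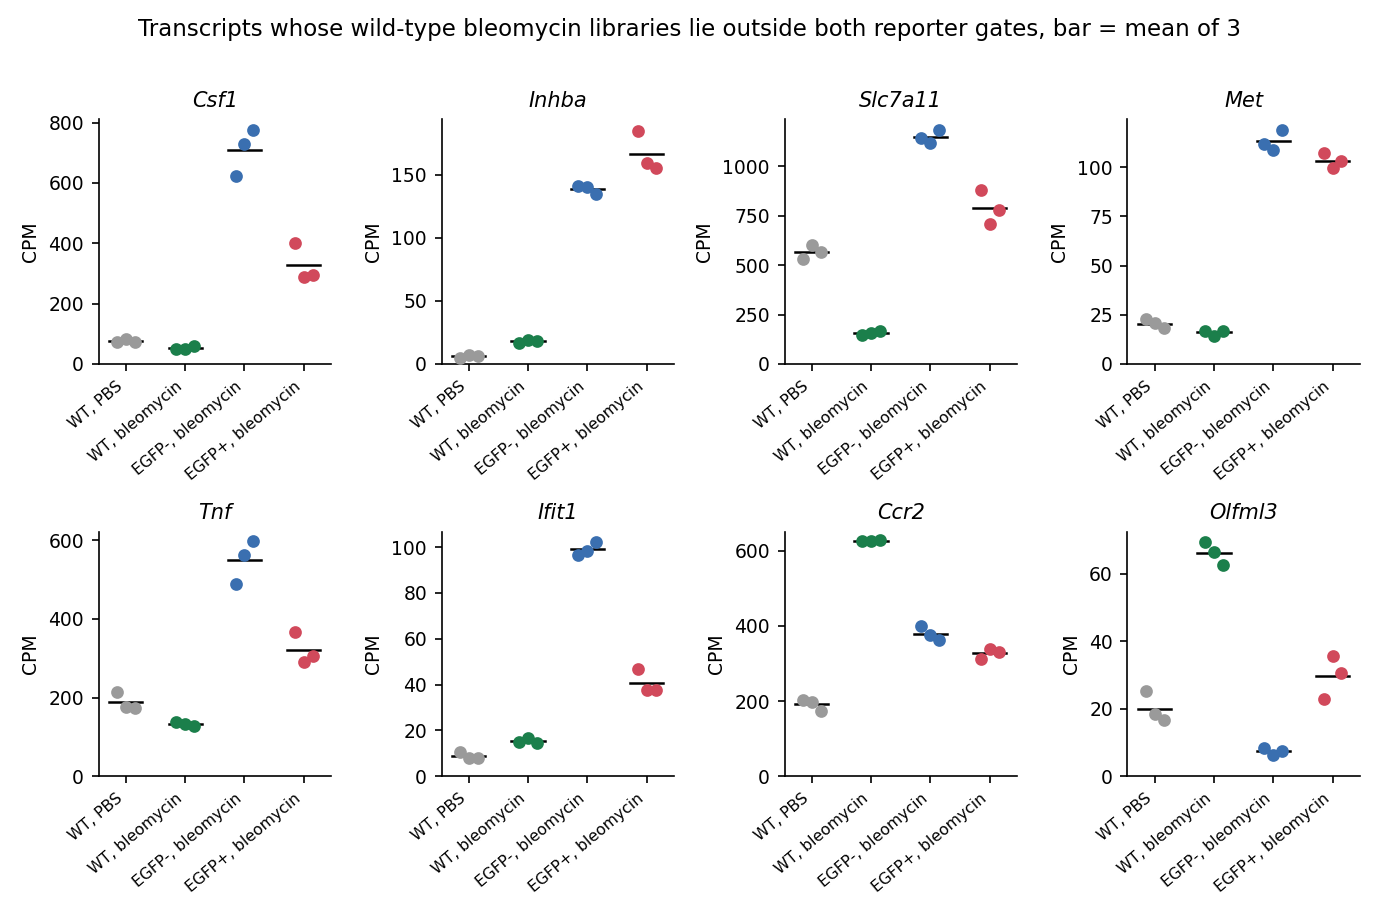
CPM of 8 genes whose wild-type bleomycin libraries lie outside both reporter gates, with 1 point per library and a bar at the mean of 3. In Csf1, Inhba, Slc7a11, Met, Tnf and Ifit1 the wild-type bleomycin points are below all 6 reporter points, and in Ccr2 and Olfml3 they are above them.

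The gene lists stood as follows by this count. Over all genes, the shares outside both gates were 14% with higher and 13.7% with lower reporter levels. EGFP+ libraries were called and above all 6 others for 7.52% of all genes, and called and below them for 5.84%. Of 22 type I interferon-stimulated genes 13 were outside both gates with higher reporter levels and 0 with lower ones, and 0 had EGFP+ libraries above all 6 others. The inflammatory list had 11 of 18, the Nrf2-type list 10 of 16 and the glycolysis list 11 of 20 outside with higher reporter levels. The mitotic list had 10 of 18, and MHC class II 8 of 12, outside with lower reporter levels. Some of these lists were high on both counts. EGFP+ libraries lay above all 6 others for 10 of the 20 glycolysis and 7 of the 16 Nrf2-type genes. They lay below all 6 others for 8 of the 12 MHC class II genes. Lipid uptake, storage and efflux had 7 of 19 outside with higher and 2 with lower reporter levels, and 10 above. The lipid-associated list had 1 of 21 outside in each direction and 15 above. The proton pump list had 11 of 17 above, and 2 outside with higher reporter levels, near the share over all genes. No test compared the lists with each other.

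Genes near Spp1 were examined because the reporter mice carry an EGFP knock-in named for this gene and the wild-type mice do not, and where EGFP was inserted is not given in the labels. Within 5 Mb of the gene, 34 of 79 genes tested (43%) were called, 16 higher and 18 lower, against 36.5% of all genes and 331 of 989 (33.5%) on the whole of chromosome 5. A930011G23Rik, an uncharacterised transcript, had 137, 159 and 153 CPM in EGFP+, 141 to 155 CPM in EGFP- and 366, 372 and 349 CPM in wild-type libraries. Lin54, a part of a complex that controls cell cycle genes, had 84.4, 81.9 and 77.1 CPM in EGFP+, 72.3 to 79.1 CPM in EGFP- and 49.2, 49.7 and 51.6 CPM in wild-type libraries. In both genes the 2 reporter gates lay close together and apart from wild-type. Not every called gene of the region showed that pattern. Plac8 had 70.1, 65.3 and 60.9 CPM in EGFP+, 168 to 227 CPM in EGFP- and 118, 111 and 110 CPM in wild-type libraries, so the reporter gates lay on opposite sides of wild-type. Aff1, a part of transcription elongation complexes, had 250 ± 26.1, 382 ± 12.1 and 161 ± 4.94 CPM in the same order. Gbp8, of a family of similar guanylate-binding protein genes whose reads may be shared, had 7.01 ± 0.84, 12.4 ± 2.37 and 17.4 ± 3.26 CPM. In Abcg3, a transporter gene, the gates were again close, at 11.2 ± 0.72, 11.6 ± 0.48 and 21.6 ± 2.13 CPM. Nnt, a mitochondrial gene that differs between C57BL/6 substrains, had 14.4 ± 0.59 CPM in EGFP+, 10.5 ± 1.25 CPM in EGFP- and 18.7 ± 1.07 CPM in wild-type libraries, with transcripts in every library. Whether the groups differ in substrain was not tested, and counts per gene do not settle it.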

How the data were processed

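Bulk RNA was counted in sorted mouse lung macrophages. Polyadenylated RNA was sequenced, per the labels' protocols, and the table deposited by the authors holds unscaled counts of reads for 49585 genes. Per the submitters' processing notes, FastQC 0.11.5, Trimmomatic 0.38, HISAT2 2.1.0, SAMtools and featureCounts 1.6.3 were used, with GRCm38 as the build. The annotation release and strand setting are not given in the sources used here, so overlapping and antisense genes such as Tsix and Xist are uncertain. The table has 3 more count columns that could not be assigned to a sample, and these were left out.

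The 3 EGFP+ and 3 wild-type libraries were compared by edgeR 4.0.16 in R 4.3.3 (TMM factors, filterByExpr, robust quasi-likelihood F test, 2-sided). Genes with a Benjamini-Hochberg adjusted p below 0.05, taken over all genes tested, were called. Every adjusted p is from this tool. The SE is the absolute log2 fold change over the square root of F. Levels are CPM scaled by TMM factors over the 12 interstitial libraries, which held 14049139 to 17848593 counts each, and compare a gene between samples, not genes with each other. The contrast of both reporter gates with wild-type used 9 libraries. No 2 libraries of a group agreed within sampling noise (chi-square per degree of freedom 2.95 to 9.56). Alternatives were other scalings, filters, DESeq2 1.42.0, a replicate block, all groups in 1 fit and each library left out.

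Members, gene lists and tests were chosen with earlier results of these data known. Named genes were Spp1, Itgam, Siglecf, the sex-linked genes and Nnt, in each direction the 12 called genes of largest change (at least 10 CPM in the higher group, no overlap, no predicted genes, pseudogenes or receptor segments), the 4 members of each pathway list and 3 of each marker list with the smallest p, 8 genes each way outside both reporter gates, and 6 near Spp1. Not every gene of these sets is described in the text. Apoe, Trem2, Gpnmb, Mki67, Gclm, Txnrd1, Cd80 and Cd86 were named after their values were seen. So were the autosomal alternative, the count of genes with EGFP+ libraries above or below all 6 others, and the antioxidant motif. Of 13 classical monocyte names, 12 were found in the table.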

Additional observations from a re-analysis of the deposited data

How the results depend on the processing

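Genes called at 2-fold or more fell from 481 higher and 339 lower to 237 and 130 with a filter of 5 CPM in 3 libraries, where fewer genes are tested. Library totals gave 1869 higher and 4154 lower, and a Spp1 change of 0.26 (adjusted p 0.0800, edgeR). Leaving out each library in turn gave 2228 to 2767 genes higher and 1818 to 2260 lower, 441 to 514 and 287 to 405 at 2-fold, a Spp1 change of 0.26 to 0.48, 26 to 31 called genes near Spp1, 175 to 199 list members higher and 73 to 97 lower. For both reporter gates it gave 3147 to 3867 higher and 3454 to 4230 lower, with 2178 to 2440 and 2139 to 2537 outside both. DESeq2 called 2506 higher and 1840 lower. Direction was compared for the genes named by rule, Spp1 included, and no called value among them changed sign under these alternatives. The balance of calls did turn, with library totals and with upper-quartile factors, which gave 2476 higher and 2998 lower. Same-numbered libraries correlated at 0.057, 0.030 and 0.081, so the numbers do not pair them. With a replicate block 2861 genes were higher and 2453 lower, 3585 and 4108 for both reporter gates, and Ddx3y no longer passed (-5.31, adjusted p 0.0548). At these depths 3 counts are 0.17 to 0.20 CPM in the 6 libraries compared and up to 0.21 CPM in the EGFP- libraries, so genes near that level cannot be compared.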

Other observations

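Coagulation and fibrinolysis genes were higher for 9 of 13 tested members and lower for 0, with a median log2 fold change of 0.46. F10, coagulation factor X, had 547, 478 and 480 CPM in EGFP+ and 195, 191 and 197 CPM in wild-type libraries, a log2 difference of 1.38 ± 0.06 (SE, adjusted p = 1.3e-11, edgeR), and 585 ± 18.7 CPM in EGFP- libraries. F7, coagulation factor VII, had 175, 208 and 203 CPM against 128, 125 and 121 CPM, but 42.9 to 49.0 CPM in EGFP- libraries. Both genes were higher in EGFP+ than in wild-type libraries, and the EGFP- libraries stood on opposite sides. Iron and haem genes were higher for 8 of 12 and lower for 3, with a median of 0.62: Fth1, ferritin heavy chain, had 10447 ± 487 (SD) against 6272 ± 322 CPM, and Slc48a1, a haem transporter of the lysosome, 168 ± 3.16 against 98.7 ± 3.25 CPM.

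Complement genes were higher for 4 of 12 and lower for 6. C3 had 548, 429 and 483 CPM against 237, 252 and 253 CPM, and 800 ± 9.13 CPM in EGFP- libraries, whereas the C1q chains were lower. Cholesterol synthesis genes were higher for 10 of 21 and lower for 0, with a median of 0.17, and 6 were higher without wild-type replicate 1 or with library totals. The letters CACGTG, an E-box found in many lysosomal promoters, were in 7 of 23 windows (30.4%) of the lysosome list and 4 of 16 (25%) of the proton pump list, against 7.15% of all windows.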
